A study of Rattus norvegicus with 20 samples.

Results

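The genes examined here are 10 genes that mark intercalated cells and carry out their acid-base work: the anion exchangers Slc4a1, Slc26a4 and Slc4a9, the transcription factor Foxi1, the proton pump subunits Atp6v1b1, Atp6v1g3 and Atp6v0d2, the channel Aqp6, the receptor Insrr and the ammonia transporter Rhcg. They are picked out by gene name, with no threshold on a measured value, though the list was drawn up with earlier results of these data known, and all 10 of 10 were found in both deposited tables, which list 32545 genes for cyclosporine A and 32883 for tacrolimus. None of the 10 passed the test for a change with tacrolimus. With cyclosporine A the answer depended on the scale: 0 of 10 passed after the libraries were put on a common scale for nuclear genes. On the values as deposited, where most of the genome was lower, 8 of 10 passed as lower.

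Intercalated cells lie scattered among the principal cells of the connecting tubule and collecting duct and set the final acid content of urine. Type A cells secrete acid: a vacuolar proton pump at the luminal membrane moves protons into the urine, and the anion exchanger AE1, the product of Slc4a1, returns bicarbonate to the blood. Type B and non-A non-B cells carry pendrin, the product of Slc26a4, at the luminal membrane and secrete bicarbonate in exchange for chloride, and type B cells carry AE4, the product of Slc4a9, on the blood side.

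Kidney expression was measured by bulk RNA sequencing in 20 wild-type adult male Wistar rats aged 10 to 12 weeks, and the series title gives the aim as a comparison of the nephrotoxicity of 2 calcineurin inhibitors, drugs that suppress the immune response after transplantation. All animals carried an osmotic minipump for 28 days. It held saline (4 rats), cyclosporine A (4 rats, target trough given in the labels as 3 mg/ml, a unit that may be a typing error and was not checked here), a vehicle of 25% DMSO and 75% PEG (6 rats), or tacrolimus (6 rats, target trough 3.5 ng/ml). RNA came from the entire kidney, so fewer intercalated cells and less RNA per cell cannot be told apart, and each table was normalized on its own, so drug, vehicle and table change together between the comparisons.

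RefSeq gave a promoter window, 250 bases before to 50 bases after the start of the gene on the rat assembly GRCr8, for 7 of the 10 members. Foxi1 belongs to the forkhead family, and 4 forms of the forkhead motif were searched on both strands. They are of the same length and differ from each other at 1 or 2 letters, and no member window held more than 1 match. Of 33469 rat promoter windows of this length, 3.78% held the form TGTTTAC, 4.54% held the form TGTTTAT, 4.88% held the form TGTTTGC, 3.51% held the form TATTTAC, and 15.3% held at least 1 of these forms. Among the members, 3 of 7 windows held a match, in Atp6v1b1, Atp6v1g3 and Slc4a9, and those of Slc26a4, Foxi1, Aqp6 and Rhcg held none. The windows of 3 genes whose levels had r of 0.82 to 0.90 with each other across animals in the tacrolimus table (Foxi1, Atp6v1b1 and Rhcg), and of the pump subunit with the lowest unadjusted p there (Atp6v1g3), are shown with the match in capitals.
Foxi1 promoter, chr10:19314356-19314655, minus strand: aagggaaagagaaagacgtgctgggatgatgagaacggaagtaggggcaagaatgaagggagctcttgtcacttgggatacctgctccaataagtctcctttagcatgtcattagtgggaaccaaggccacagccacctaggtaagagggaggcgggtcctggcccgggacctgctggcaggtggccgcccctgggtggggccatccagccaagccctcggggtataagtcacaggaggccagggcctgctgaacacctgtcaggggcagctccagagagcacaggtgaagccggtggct
Atp6v1b1 promoter, chr4:117781194-117781493, plus strand: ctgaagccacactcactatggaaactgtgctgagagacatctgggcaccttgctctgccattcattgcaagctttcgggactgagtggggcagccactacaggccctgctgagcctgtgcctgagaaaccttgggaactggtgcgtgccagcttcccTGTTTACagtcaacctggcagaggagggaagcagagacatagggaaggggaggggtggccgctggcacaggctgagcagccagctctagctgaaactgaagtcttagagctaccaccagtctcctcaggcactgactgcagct
Rhcg promoter, chr1:142965113-142965412, minus strand: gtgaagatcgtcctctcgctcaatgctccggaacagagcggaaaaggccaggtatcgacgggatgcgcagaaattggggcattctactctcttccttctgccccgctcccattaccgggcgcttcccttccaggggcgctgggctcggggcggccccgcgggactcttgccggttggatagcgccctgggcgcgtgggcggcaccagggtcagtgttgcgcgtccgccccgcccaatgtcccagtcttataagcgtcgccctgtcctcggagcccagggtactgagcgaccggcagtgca
Atp6v1g3 promoter, chr13:52362082-52362381, plus strand: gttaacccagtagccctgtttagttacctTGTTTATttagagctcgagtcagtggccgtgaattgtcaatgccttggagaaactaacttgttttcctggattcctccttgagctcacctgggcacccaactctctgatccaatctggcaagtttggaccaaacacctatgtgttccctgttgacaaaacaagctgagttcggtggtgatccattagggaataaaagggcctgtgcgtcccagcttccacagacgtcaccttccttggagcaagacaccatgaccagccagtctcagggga
The match TGTTTAC of Atp6v1b1 begins at position -93 from the gene start and the match TGTTTAT of Atp6v1g3 at position -221. A match describes the letters of the window and is not evidence that a factor binds there.

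The members were well covered, with 273 to 12928 fragments per gene and library for cyclosporine A and saline and 757 to 10705 for tacrolimus and its vehicle. Total fragments on genes ran from 30467652 to 34307942 per library for cyclosporine A and saline, and from 31670202 to 39358485 for tacrolimus and its vehicle. Mitochondrial transcripts took 49.7% to 68.6% of them in saline rats and 80.2% to 90.8% in cyclosporine A rats, against 10.5% to 13.7% in DMSO/PEG rats and 10.8% to 15.9% in tacrolimus rats. FPKM, the deposited unit, divides the fragments of a gene by its length and by a factor of the library, and in the cyclosporine A table that factor is the total with mitochondrial fragments included. A larger mitochondrial share therefore lowers the FPKM of every nuclear gene, and the median log2 fold change of all 13491 genes tested was -0.89 on deposited values. The cyclosporine A comparison was thus made on rescaled FPKM, divided by median-of-ratios size factors, where that median is 5.97e-05, with deposited values beside it. Each library is 1 sample of its group, and the p-values measure the spread between these samples.

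In rats given the DMSO/PEG vehicle, Aqp6 had the highest level per length of the members, with a mean of 75.0 ± 6.88 FPKM (SD, n = 6), followed by Rhcg with 64.0 ± 4.10. Slc4a1 (44.4 ± 8.30), Atp6v1b1 (42.5 ± 3.78) and Atp6v1g3 (42.3 ± 5.34) formed a middle group whose ranges overlapped one another and lay below that of Rhcg. Slc26a4 (26.5 ± 2.18), Atp6v0d2 (23.2 ± 3.77), Slc4a9 (17.7 ± 2.31) and Foxi1 (15.2 ± 2.36) followed, each overlapping its neighbour in the order, and Insrr was lowest at 5.51 ± 1.00, clear of Foxi1. In saline rats, on rescaled FPKM, Atp6v1g3 stood first with 62.8 ± 18.9 (SD, n = 4), and the ranges of neighbours overlapped from there down to Atp6v0d2. Slc26a4 (13.6 ± 4.204), Slc4a9 (11.8 ± 3.04) and Foxi1 (10.9 ± 3.01) formed a lower group below Atp6v0d2, and Insrr was again lowest at 2.74 ± 1.06. Foxi1 and Insrr were thus the lowest members in both vehicle groups.

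**Figure D1:**
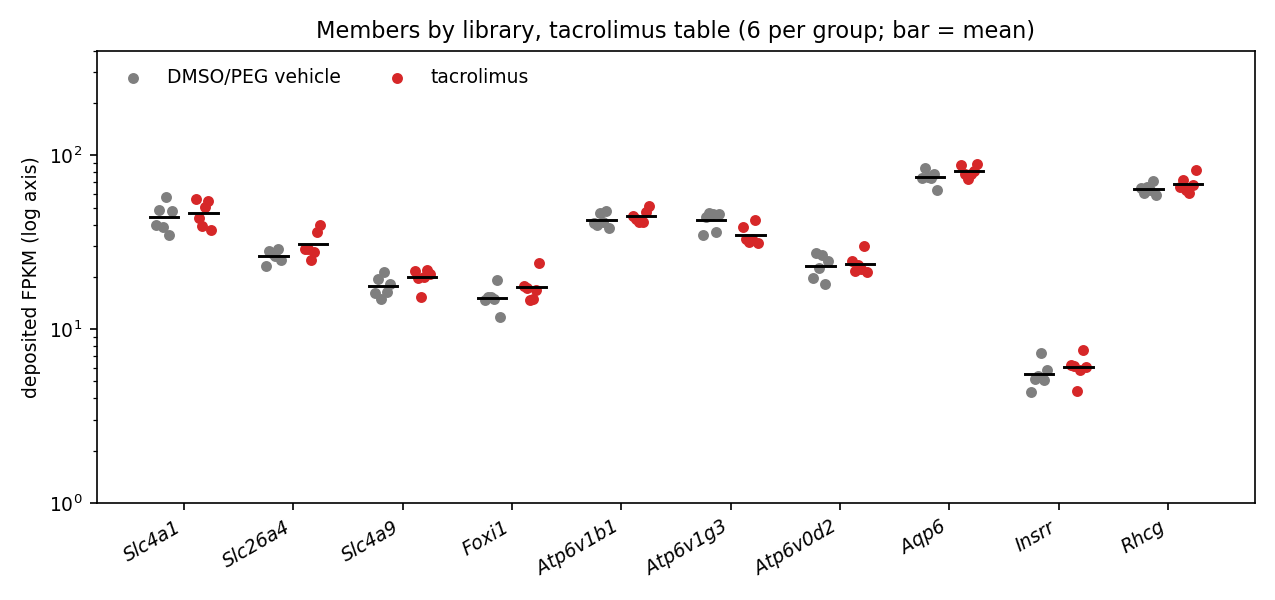
Deposited FPKM of the 10 members in each library of the tacrolimus table (log axis), with 6 DMSO/PEG vehicle rats in grey, 6 tacrolimus rats in red and bars at the group means. The groups overlap for every member, and Atp6v1g3 is the member whose mean is lower with tacrolimus (34.9 against 42.3 FPKM).

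Of the 10 members, 0 were called changed by tacrolimus (limma on log2(FPKM + 1), Benjamini-Hochberg adjusted p under 0.05), beside 0.303% of the 15493 genes tested. At an unadjusted p under 0.05 there was 1 of 10, beside 8.58% of all genes, and limma's voomWithQualityWeights on recovered fragments also called 0. No member had groups that did not overlap, beside 0.975% of all genes. The fitted log2 fold change was above 0 for 9 of 10 members, with a median of 0.10 against a median of -3.25e-04 over all genes tested. The count of signs is a description of these libraries.

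Of the 10 members, 0 were called changed by cyclosporine A on rescaled FPKM, beside 0.6% of the 13491 genes tested, and 0 had an unadjusted p under 0.05, beside 16.2% of all genes. No member had groups that did not overlap, beside 10.9% of all genes, and voomWithQualityWeights called 0. The fitted change was above 0 for 8 of 10, with a median of 0.29. On deposited FPKM, 8 of 10 members were called lower, beside 80.7% of all genes called lower, and the same 8 had groups that did not overlap, beside 67.6% of all genes with cyclosporine A below vehicle. The members' median log2 fold change on that scale was -1.01, close to the median of -0.89 over all genes, so the share of members called lower was near the background.

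**Figure D2:**
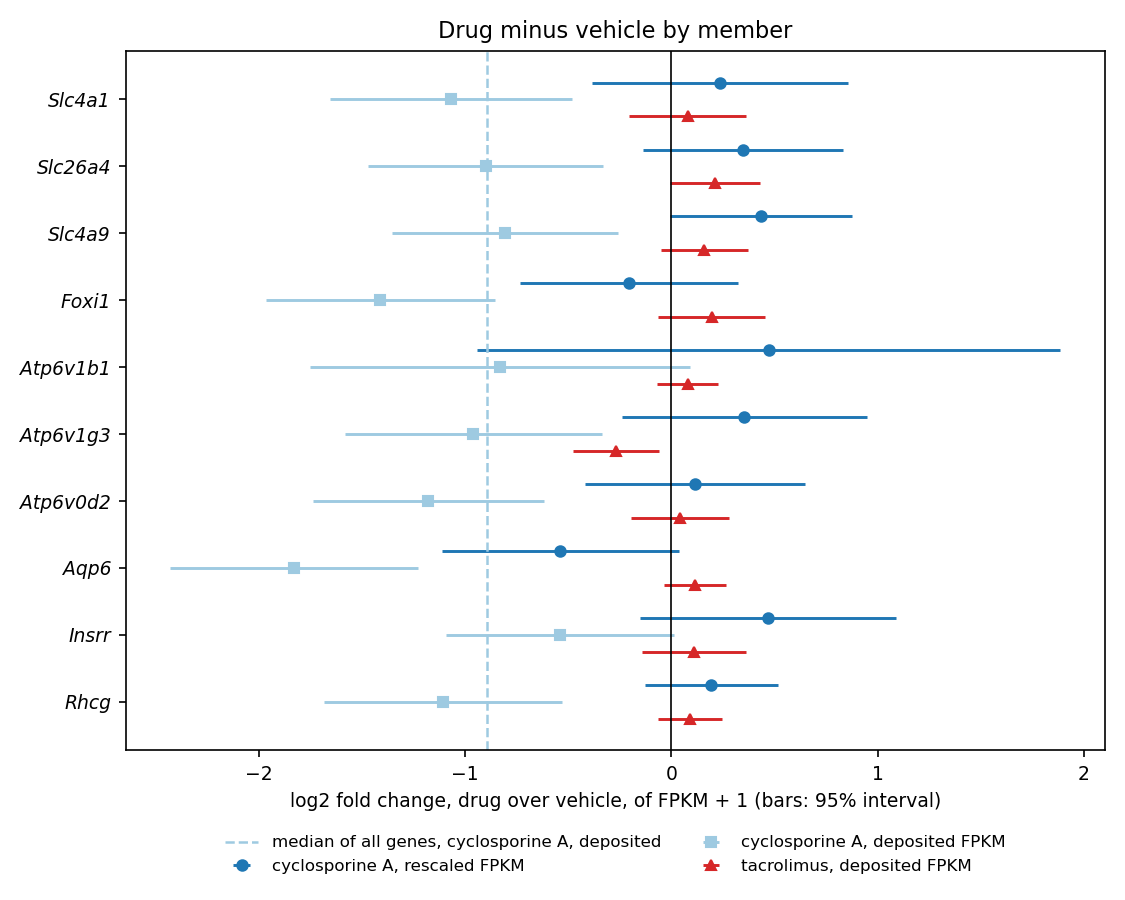
Log2 fold change of each member (drug over vehicle, of FPKM + 1) with its 95% limma interval, for cyclosporine A on rescaled FPKM (circles), cyclosporine A on deposited FPKM (squares) and tacrolimus (triangles). Most deposited cyclosporine A values lie near the dashed line at -0.89, the median of all genes, and Aqp6 is farthest from it (-1.83). Of the rescaled cyclosporine A values 8 of 10 are above 0, and of the tacrolimus values 9 of 10.

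Among the anion exchangers, Slc4a1 (chr10:90296141-90312386, minus strand, rn6) gave 26.6, 47.8, 35.1 and 51.2 rescaled FPKM in saline rats and 49.9, 34.1, 34.5 and 76.1 in cyclosporine A rats. Apart from replicate 4 of the cyclosporine A group, which was highest, the values lay in the same range. The log2 fold change was 0.24 (SE 0.28, 95% interval -0.38 to 0.86, limma adjusted p = 0.730). With 1 library left out it ran from -0.0013 (without cyclosporine A replicate 4) and 0.06 (without saline replicate 1) to 0.38 (without cyclosporine A replicate 2). On deposited FPKM the gene ran from 53.0 to 86.8 in saline rats and from 25.4 to 32.2 in cyclosporine A rats, with no overlap (log2 fold change -1.07, SE 0.28, adjusted p = 0.0026). In the tacrolimus table Slc4a1 ran from 34.6 through a median of 43.8 to 57.2 FPKM in vehicle rats and from 37.2 through 47.0 to 55.8 with tacrolimus. These ranges nearly coincided, and the log2 fold change of 0.08 (SE 0.13, limma adjusted p = 0.934) ran from 0.01 (without vehicle replicate 5) to 0.15 (without vehicle replicate 4) with 1 library left out.

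Slc4a1 also encodes band 3 of red cells, so its reads need not come from the tubule alone. The 12 erythroid markers in the tables, globins among them, summed to 361 to 981 rescaled FPKM in saline rats and 573 to 5757 in cyclosporine A rats, and to 775 to 3354 FPKM in DMSO/PEG rats and 753 to 2587 in tacrolimus rats. None of the erythroid markers found was at 0 in every library. After the group means were subtracted, Slc4a1 and the summed erythroid markers had r = 0.60 and rho = 0.55 over the 8 libraries of the cyclosporine A table (permutation p = 0.113, adjusted p = 0.208). With the 2 libraries of the most distant erythroid sums left out, r was -0.02. Over the 12 libraries of the tacrolimus table r was -0.13 and rho 0.04 (permutation p = 0.676, adjusted p = 0.764), and r was 0.06 without the 2 most distant libraries. The relation in the cyclosporine A table thus rested on those 2 libraries, and the part of red cells in the Slc4a1 values was not tested further.

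Slc26a4, the gene of pendrin (chr6:50808923-50846965, minus strand), gave 8.46, 18.5, 12.7 and 14.8 rescaled FPKM in saline rats and 15.5, 13.4, 19.96 and 19.96 in cyclosporine A rats. Cyclosporine A replicates 3 and 4 lay above every saline rat, and the other two fell within the saline range. The log2 fold change was 0.35 (SE 0.22, 95% interval -0.14 to 0.83, limma adjusted p = 0.473). Without saline replicate 1 it was 0.15. Deposited FPKM was 16.8 to 25.1 with saline and 8.44 to 14.7 with cyclosporine A, a log2 fold change of -0.90 (SE 0.27, adjusted p = 0.0062). With tacrolimus and its vehicle, pendrin transcripts ran from 23.1 through a median of 26.8 to 29.0 FPKM in vehicle rats and from 25.1 through 28.8 to 39.7 with tacrolimus. Only tacrolimus replicates 5 and 6 exceeded the vehicle range, and the log2 fold change of 0.21 (SE 0.10, 95% interval -0.01 to 0.43) did not pass (limma unadjusted p = 0.0589, adjusted p = 0.610). Without replicate 6 that change was 0.14.

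Slc4a9, the gene of AE4 (chr18:29352749-29365595, plus strand), gave 8.24, 14.9, 10.3 and 13.5 rescaled FPKM in saline rats and 18.6, 13.7, 12.8 and 19.3 in cyclosporine A rats. The same pattern of 2 cyclosporine A rats above the saline range appeared, here replicates 1 and 4. Its log2 fold change of 0.43 (SE 0.20, 95% interval -0.01 to 0.87) had the lowest p of the members in this comparison (limma unadjusted p = 0.0526, adjusted p = 0.317). It was 0.29 without saline replicate 1. On deposited FPKM it ran from 15.6 to 23.0 with saline and from 8.17 to 11.5 with cyclosporine A (log2 fold change -0.81, SE 0.26, adjusted p = 0.0094), and the call was lost without saline replicate 4 (-0.70, adjusted p = 0.0517). With DMSO/PEG the gene ran from 14.99 through 17.4 to 21.2 FPKM and with tacrolimus from 15.2 through 20.4 to 22.0. Tacrolimus replicate 3 lay apart from its group at the low end, and the log2 fold change was 0.16 (SE 0.10, limma adjusted p = 0.717).

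The proton pump subunits of the list are the forms enriched in acid-secreting epithelia, beside forms that most cells use. Atp6v1b1, the B1 subunit of the catalytic sector (chr4:115416580-115437206, plus strand), gave 19.7, 25.9, 54.4 and 49.2 rescaled FPKM in saline rats and 36.1, 24.0, 27.3 and 216 in cyclosporine A rats. The saline rats fell into a low and a high pair, and cyclosporine A replicate 4 stood far above every other animal. The log2 fold change was 0.47 with an SE of 0.63 (95% interval -0.94 to 1.88, limma adjusted p = 0.769), the widest interval of the members, and it was -0.25 without that library. It was 0.22 without saline replicate 1, and 0.79 and 0.73 without cyclosporine A replicates 2 and 3. That library also had the highest mitochondrial share (90.8%) and the fewest nuclear fragments (2905422), yet held 12928 fragments of Atp6v1b1, more than any other animal of the table (2837 to 11597). The part of these library measures in the value was not tested.

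On deposited FPKM Atp6v1b1 was 39.1, 32.3, 82.2 and 83.4 in saline rats and 22.3, 19.6, 20.1 and 91.5 in cyclosporine A rats. It was 1 of 2 members not called on that scale (log2 fold change -0.83, SE 0.44, limma adjusted p = 0.0882), and without cyclosporine A replicate 4 it was called lower (-1.35, adjusted p = 0.0018). Its values in the tacrolimus table were among the most even, from 38.3 through 41.1 to 47.8 FPKM in vehicle rats and from 41.4 through 43.9 to 51.4 with tacrolimus. The groups overlapped through most of their range, and the log2 fold change was 0.08 (SE 0.07, 95% interval -0.07 to 0.23, limma adjusted p = 0.844). This became 0.04 without tacrolimus replicate 6 and 0.05 without vehicle replicate 6.

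Atp6v1g3, the G3 subunit of the stalk (chr13:55274199-55288651, plus strand), was the member with the lowest p in the tacrolimus table. It ran from 34.6 through a median of 45.2 to 46.3 FPKM in vehicle rats and from 31.1 through 33.0 to 42.3 with tacrolimus. Vehicle replicates 1 and 5 and tacrolimus replicates 1 and 5 lay close together between 34.6 and 42.3 FPKM, and the other 4 rats of each group were separated. The log2 fold change was -0.27 (SE 0.10, 95% interval -0.48 to -0.06), which did not pass after adjustment (limma unadjusted p = 0.0148, adjusted p = 0.409). It was the only member below 0 with tacrolimus, and it stayed between -0.33 and -0.22 over the alternatives tried.

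With cyclosporine A the G3 subunit gave 37.4, 59.8, 74.2 and 79.7 rescaled FPKM in saline rats and 98.7, 56.9, 61.9 and 103 in treated rats. Replicates 1 and 4 of the treated group were above all saline rats and the other two were inside the saline range, for a log2 fold change of 0.35 (SE 0.27, 95% interval -0.24 to 0.95, limma adjusted p = 0.559). This became 0.13 without saline replicate 1 and 0.22 without cyclosporine A replicate 4. On deposited FPKM the groups parted, at 74.4 to 135 with saline and 43.5 to 61.0 with cyclosporine A (log2 fold change -0.96, SE 0.30, adjusted p = 0.0071).

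Atp6v0d2, the d2 subunit that joins the pump's rotor to its membrane ring (chr5:33843519-33892462, minus strand), gave 19.8, 36.4, 29.4 and 29.6 rescaled FPKM in saline rats and 38.5, 23.3, 22.7 and 42.4 in cyclosporine A rats. Cyclosporine A replicates 1 and 4 lay above the saline range and replicates 2 and 3 within it. The log2 fold change of 0.11 (SE 0.24, 95% interval -0.42 to 0.65, limma adjusted p = 0.866) changed sign without saline replicate 1 (-0.05) or cyclosporine A replicate 4 (-0.04) and reached 0.25 without cyclosporine A replicate 3. Deposited values were 39.4 to 50.3 with saline and 16.8 to 23.8 with cyclosporine A (log2 fold change -1.18, SE 0.27, adjusted p = 0.0012). Its deposited FPKM in the tacrolimus table ran from 18.1 through 23.6 to 27.4 FPKM in vehicle rats and from 21.4 through 22.7 to 29.9 with tacrolimus, with a log2 fold change of 0.04 (SE 0.11, limma adjusted p = 0.960). No direction could be read from it there, since leaving out vehicle replicate 1 or 5 or tacrolimus replicate 5 turned its sign.

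Foxi1, the forkhead factor required for intercalated cells to form (chr10:19160582-19164505, minus strand), gave 6.85, 12.5, 10.6 and 13.8 rescaled FPKM in saline rats and 11.8, 6.10, 8.24 and 11.3 in cyclosporine A rats. It was 1 of 2 members with a mean below vehicle on this scale, though its groups covered nearly the same range (log2 fold change -0.21, SE 0.24, 95% interval -0.74 to 0.32, limma adjusted p = 0.725). With 1 library left out that change ran from -0.39 (without saline replicate 1) to -0.04 (without cyclosporine A replicate 2). On deposited FPKM it ran from 13.6 to 23.3 with saline and from 4.77 to 7.28 with cyclosporine A, a log2 fold change of -1.41 (SE 0.27, adjusted p = 0.000638). With DMSO/PEG it ran from 11.8 through 15.1 to 19.2 FPKM and with tacrolimus from 14.7 through 17.0 to 24.0. Tacrolimus replicate 6 stood above all other rats of the table, and the log2 fold change of 0.19 (SE 0.12, 95% interval -0.06 to 0.45) did not pass (limma adjusted p = 0.719). It was 0.11 without that library and 0.13 without vehicle replicate 6.

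**Figure D3:**
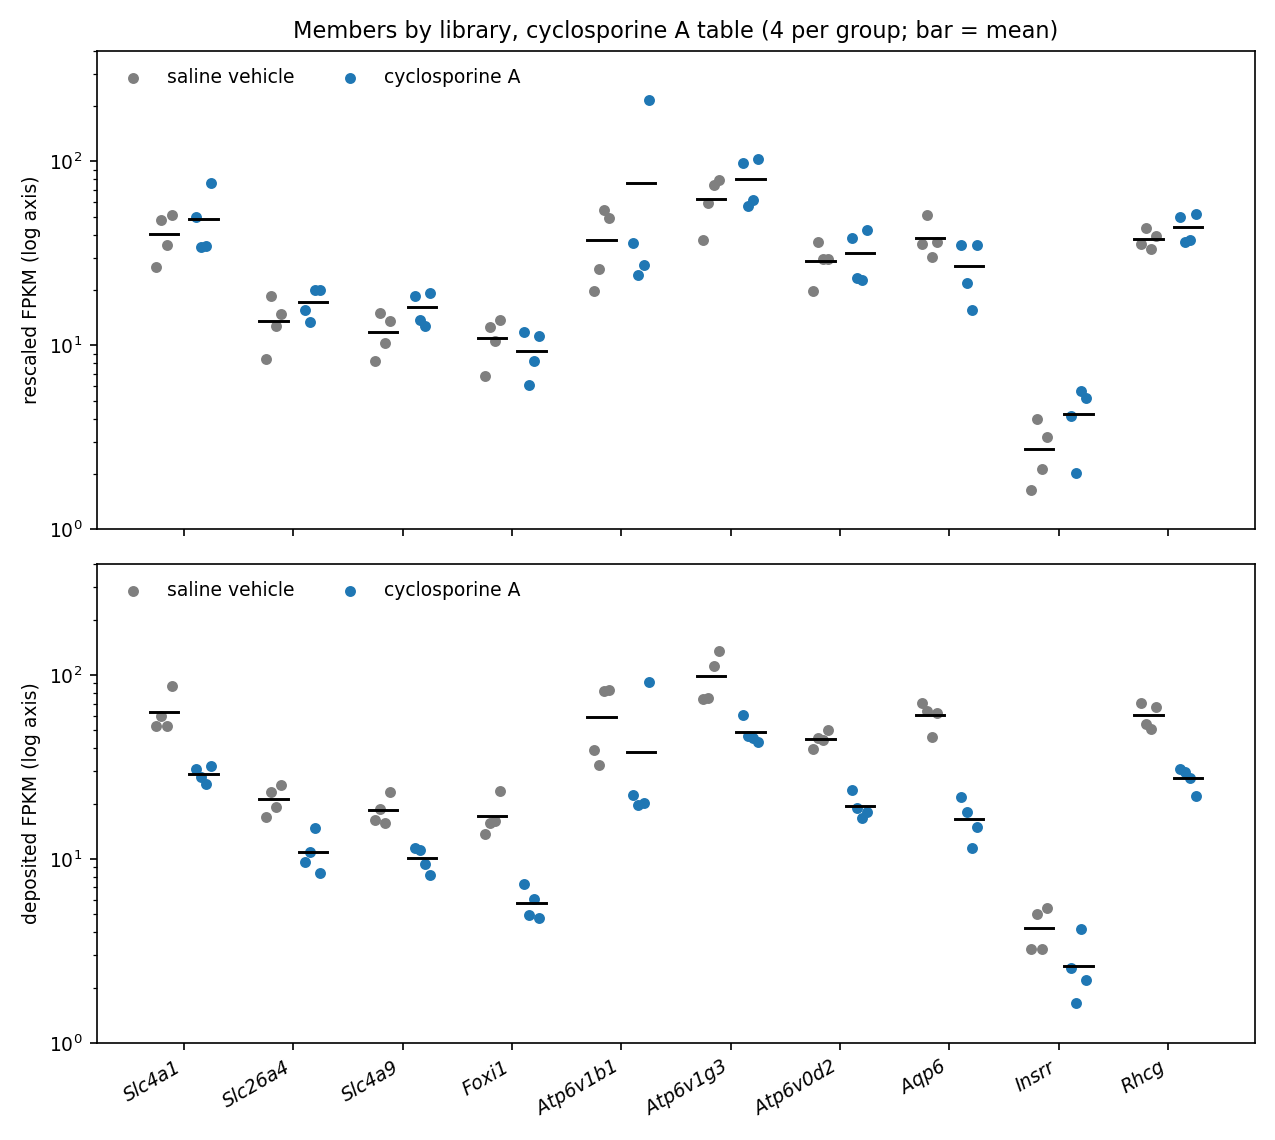
Members in each library of the cyclosporine A table (log axes), as rescaled FPKM (top) and deposited FPKM (bottom), with 4 saline vehicle rats in grey, 4 cyclosporine A rats in blue and bars at the group means. The groups overlap for all 10 members after rescaling, and for Atp6v1b1 and Insrr alone on deposited values; cyclosporine A replicate 4 stands at 216 rescaled FPKM for Atp6v1b1.

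Aqp6, an anion-conducting aquaporin of vesicles in type A cells (chr7:141258584-141261735, plus strand), showed the most negative fold change of the members with cyclosporine A on both scales. It gave 35.6, 51.1, 30.4 and 36.4 rescaled FPKM in saline rats and 35.3, 22.0, 15.7 and 35.3 in treated rats. Treated replicates 2 and 3 lay below every saline rat and replicates 1 and 4 inside the saline range, and the log2 fold change of -0.54 (SE 0.26, 95% interval -1.11 to 0.04) did not pass (limma unadjusted p = 0.0641, adjusted p = 0.343). Without replicate 3 it was -0.31. On deposited FPKM the values were 70.8, 63.8, 45.9 and 61.8 against 21.8, 17.9, 11.5 and 14.9. These groups were well apart, and the log2 fold change of -1.83 (SE 0.29, adjusted p = 0.00046) was lower than that of all but 1.76% of the genes tested. Aqp6 in the tacrolimus table ran from 63.6 through 74.8 to 84.8 FPKM in vehicle rats and from 72.9 through 79.8 to 88.7 with tacrolimus (log2 fold change 0.12, SE 0.07, limma adjusted p = 0.711, and 0.07 without vehicle replicate 6).

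Insrr, the insulin receptor-related receptor, an alkali sensor of type B cells (chr2:187162017-187181400, plus strand, in the cyclosporine A table), was the faintest member. It gave 1.64, 4.00, 2.13 and 3.18 rescaled FPKM in saline rats and 4.11, 2.03, 5.62 and 5.17 in cyclosporine A rats. Treated rats other than replicate 2 were above all saline rats, but the log2 fold change of 0.47 (SE 0.28, 95% interval -0.15 to 1.09) did not pass (limma adjusted p = 0.442). Without replicate 2 it was 0.71. On deposited FPKM it ran from 3.22 to 5.39 and from 1.65 to 4.15, and with Atp6v1b1 it was the other member not called (log2 fold change -0.54, SE 0.26, adjusted p = 0.0653); it was called without cyclosporine A replicate 3 (-0.72, adjusted p = 0.0251). With DMSO/PEG it ran from 4.32 through 5.27 to 7.30 FPKM and with tacrolimus from 4.38 through 6.11 to 7.55, a log2 fold change of 0.11 (SE 0.12, limma adjusted p = 0.880). It ran from 0.05 (without tacrolimus replicate 5) to 0.19 (without tacrolimus replicate 3) with 1 library left out. The tables list different lengths for this gene, 4997 and 5426 bases, so its level per length is not on the same footing in them.

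Rhcg, which moves ammonia into the urine of the collecting duct (chr1:141325856-141349881, minus strand), had the smallest standard error of the 10 members with cyclosporine A on rescaled FPKM, though not on deposited FPKM. It gave 35.4, 43.5, 33.5 and 39.5 rescaled FPKM in saline rats and 50.02, 36.4, 37.5 and 51.8 in treated rats. Replicates 1 and 4 of the treated group were highest, as for Slc4a9, Atp6v1g3 and Atp6v0d2, and the log2 fold change was 0.19 (SE 0.14, 95% interval -0.13 to 0.52, limma adjusted p = 0.554). It was 0.13 without replicate 1 and 0.11 without replicate 4. Deposited values were 50.7 to 70.4 with saline and 21.9 to 30.9 with cyclosporine A (log2 fold change -1.11, SE 0.27, adjusted p = 0.0019). Rhcg in the tacrolimus table ran from 59.5 through 63.9 to 70.9 FPKM in vehicle rats and from 60.6 through 66.3 to 82.6 with tacrolimus, with replicate 6 highest, as for Foxi1. The log2 fold change was 0.09 (SE 0.07, 95% interval -0.07 to 0.24, limma adjusted p = 0.815). Without that library it was 0.03.

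The change with cyclosporine A was set against the change with tacrolimus for each member. Of the 10 members, 0 differed (difference of the limma log2 fold changes, adjusted p under 0.05), beside 1.61% of 13419 genes tested in both tables, and 2 had an unadjusted p under 0.05, beside 16% of all genes. Those were Atp6v1g3, at 0.62 (SE 0.28, 95% interval 0.01 to 1.24, limma unadjusted p = 0.0471, adjusted p = 0.306), and Aqp6, at -0.65 (SE 0.27, 95% interval -1.24 to -0.07, unadjusted p = 0.032, adjusted p = 0.261). They were 0.40 without saline replicate 1 and -0.43 without cyclosporine A replicate 3. The other members ranged from -0.40 for Foxi1 to 0.39 for Atp6v1b1. Over the alternatives tried, deposited values included, Foxi1 ran from -1.61 to -0.23 and Atp6v1b1 from -0.91 to 0.72. On deposited FPKM 9 of 10 members were called lower with cyclosporine A than with tacrolimus, and 10 of 10 were below 0. Of all genes, 74.7% were called lower and 75% in either direction. That difference sets a table scaled by total fragments against a table whose median-of-ratios factors were already 1.

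Because the cyclosporine A result depended on the scale, ratios between genes of the same library, which no scaling can move, were computed after the data had been seen: 8 ratios in each table, 16 in all, with exact 2-sided permutation tests. Aqp6 per Slc4a1 had a median of 0.963 in saline rats (0.712 to 1.34) and 0.547 in cyclosporine A rats (0.453 to 0.708). The groups did not overlap, and the difference in mean log2 ratio was -0.80, but the exact permutation p of 0.0286, the smallest that 70 arrangements allow, became 0.229 after adjustment. In the tacrolimus table the same ratio was 1.81 (1.298 to 2.25) and 1.68 (1.48 to 2.38), with an exact permutation p of 0.825 (adjusted 0.864). So no change in Aqp6 per Slc4a1 passed the correction in either table.

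The ratios of the bicarbonate-secreting cells' exchangers to Slc4a1, whose reads need not all come from the tubule, gave ranges that overlapped between the groups of each table. Slc26a4 per Slc4a1 had a median of 0.339 with saline and 0.35 with cyclosporine A (p = 0.714 by exact permutation, adjusted 0.864), and 0.583 with DMSO/PEG and 0.649 with tacrolimus (exact permutation p = 0.522, adjusted 0.696). Slc4a9 per Slc4a1 was 0.302 and 0.372 in the cyclosporine A table (exact permutation p = 0.2, adjusted 0.559) and 0.394 and 0.399 in the tacrolimus table (exact permutation p = 0.446, adjusted 0.696). With 4 rats per group the smallest exact p is 0.0286, so a single separated ratio could not pass over 16 tests, and a p that misses the threshold does not show that the groups are alike.

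Each pump subunit of the list was also set against the form that most cells use. Atp6v1b1 per Atp6v1b2 had a median of 1.38 with saline (0.742 to 2.23) and 1.07 with cyclosporine A (0.780 to 8.93), with the highest value in replicate 4. In the tacrolimus table the same ratio was 0.234 (0.205 to 0.25) with vehicle and 0.251 (0.203 to 0.271) with tacrolimus, below every library of the cyclosporine A table. Atp6v1g3 per Atp6v1g1 likewise had medians of 0.805 and 0.924 in the cyclosporine A table and 0.234 and 0.203 in the tacrolimus table. Within each table neither ratio, nor Atp6v0d2 per Atp6v0d1, differed by more than the spread between animals (exact permutation p from 0.247 to 0.864, adjusted p from 0.559 to 0.864). Of the remaining ratios, Atp6v0a4 per Atp6v0a1, which compares the a4 subunit of intercalated cells with a widespread form, had the lowest p of the tacrolimus table, with medians of 8.79 and 9.99 (exact permutation p = 0.0108, adjusted 0.173), and lay the other way in the cyclosporine A table, at 14.6 with saline and 12.6 with the drug (exact permutation p = 0.143, adjusted 0.559). Atp6v1c2 per Atp6v1c1 did not pass in either table (exact permutation p = 0.314 and 0.173, both 0.559 after adjustment). Scaling of a library cannot move these ratios. Since the tables were made separately, the gap between them was not tested and cannot be told apart from how each was made.

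**Figure D4:**
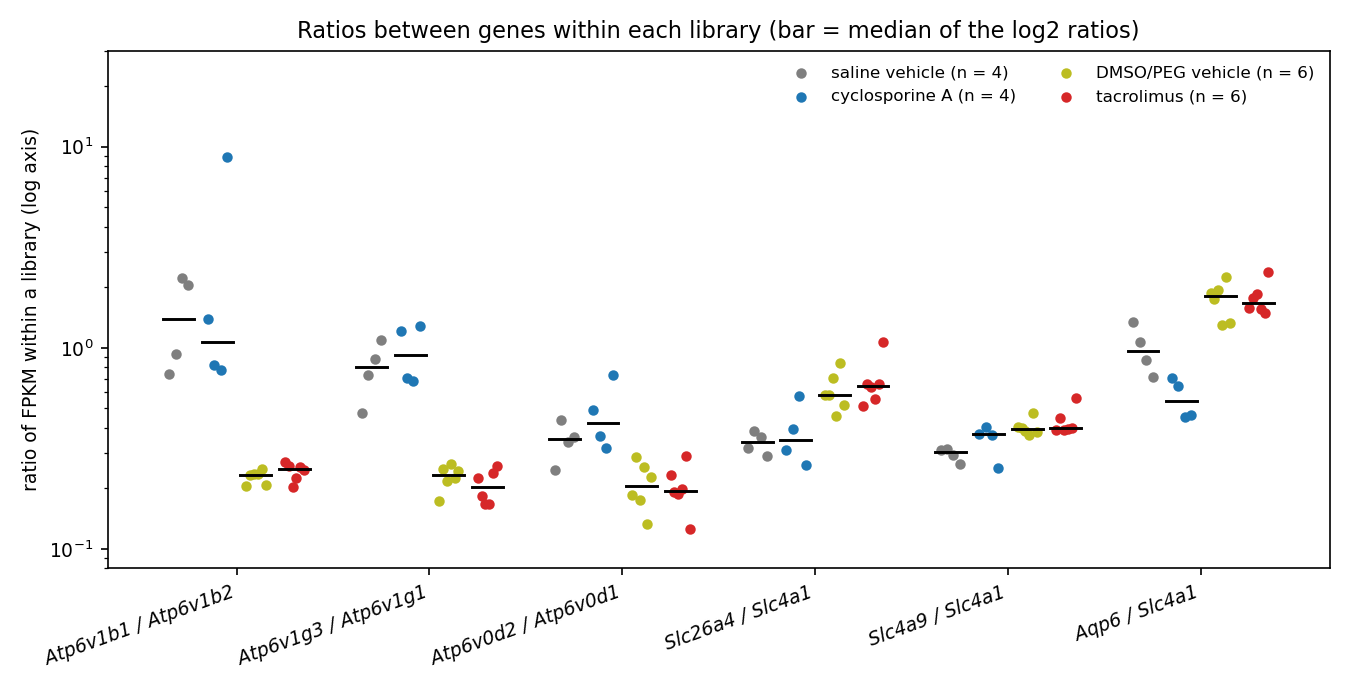
Ratios of FPKM between genes of the same library (log axis) for 3 pump subunits over their widespread forms and for Slc26a4, Slc4a9 and Aqp6 over Slc4a1, with the 4 groups in colour and bars at the medians of the log2 ratios. Aqp6 per Slc4a1 is lower in all 4 cyclosporine A rats than in the saline rats, and Atp6v1b1 per Atp6v1b2 is higher in every library of the cyclosporine A table than in any of the tacrolimus table.

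Whether the members rose and fell together from animal to animal was examined after subtracting the group means, over 45 pairs per table. The 112 relations of this kind were adjusted together and were chosen after the data had been seen. The permutations moved deviations between the 2 groups of a table, although the deviations of each group sum to 0. These p-values are therefore approximate and may be too small, and the counts of pairs that passed may be too large. In the tacrolimus table r ran from -0.59 to 0.90 with a median of 0.37, and 35 of 45 pairs were above 0. Of the 45 pairs, 12 passed (permutation test, adjusted p under 0.05), all with r above 0. All 12 kept r above 0.5 when the 2 libraries farthest from the median of 1 gene of the pair were left out. That gene was the member named earlier in the opening list, so distant libraries of the other gene could stay in. The lowest r among these 12 was 0.716, a value that 2.41% of all pairs of genes tested in the table reached, and 49.9% of all pairs were above 0. Pairs share genes and libraries, and these shares carry no test. By rank (rho), 7 of the 12 passed as well and 5 did not: Foxi1 with Rhcg (adjusted p = 0.0719), Foxi1 with Slc26a4 (0.169), Atp6v1b1 with Slc26a4 (0.0924), Slc4a1 with Atp6v1g3 (0.0719) and Atp6v1g3 with Insrr (0.0731). The pairs that passed by r fell into 2 sets that shared no gene.

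The first set held Foxi1, Atp6v1b1, Rhcg, Slc26a4 and Aqp6. Foxi1 and Rhcg had r = 0.90 and rho = 0.71 over 12 libraries (permutation p = 0.00016, adjusted p = 0.00896), and r = 0.66 without the 2 most distant libraries. Foxi1 and Atp6v1b1 had r = 0.86 and rho = 0.77 (permutation p = 8e-05, adjusted p = 0.00896), with r = 0.66 without those libraries. Atp6v1b1 and Rhcg had r = 0.82 and rho = 0.81 (permutation p = 0.00094, adjusted p = 0.0211), with r = 0.57 without the 2 libraries most distant for Atp6v1b1. Slc26a4 passed by r with Foxi1 (r = 0.74, rho = 0.56, permutation p = 0.00627, adjusted p = 0.0351) and with Atp6v1b1 (r = 0.78, rho = 0.66, permutation p = 0.00287, adjusted p = 0.0321). Aqp6 passed by r and rho with Foxi1 (r = 0.74, rho = 0.86, permutation p = 0.00615, adjusted p = 0.0351). The factor Foxi1 was thus in 4 of the pairs of this set. Tacrolimus replicate 6 had the highest FPKM of the 12 libraries for every gene of the set (Foxi1 24.0, Atp6v1b1 51.4, Rhcg 82.6, Slc26a4 39.7, Aqp6 88.7). It had the lowest for Atp6v1g3 (31.1). That library also had the highest mitochondrial share of its table (15.9%) and the fewest genes detected (17880), and its part in the sets was not tested.

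The second set held Slc4a1, Slc4a9, Atp6v1g3, Atp6v0d2 and Insrr. Atp6v1g3 and Atp6v0d2 had r = 0.86 and rho = 0.80 over 12 libraries (permutation p = 0.00037, adjusted p = 0.0118), with r = 0.80 without the 2 most distant libraries. Slc4a9 and Insrr had r = 0.82 and rho = 0.78 (permutation p = 0.00125, adjusted p = 0.0233), and Slc4a1 and Atp6v0d2 had r = 0.79 and rho = 0.79 (permutation p = 0.00259, adjusted p = 0.0321). By r, Slc4a1 also passed with Slc4a9 and with Atp6v1g3 (r = 0.74 for both), and Atp6v1g3 with Insrr (r = 0.72). Pairs across the sets ran from r = 0.49 for Slc26a4 and Insrr down to -0.59 for Slc4a1 and Rhcg (permutation p = 0.0402, adjusted p = 0.107). Over all 12 libraries, all 10 pairs with r below 0 were of this kind. Some signs across the sets turned without the 2 most distant libraries. Foxi1 with Atp6v1g3 and with Atp6v0d2 rose above 0 (0.18 and 0.14), Slc4a9 with Foxi1 and with Rhcg fell below 0 (-0.11 and -0.23), and Slc4a1 with Rhcg stayed at -0.59. The sets do not follow the cell types of the exchangers, since the type A exchanger Slc4a1 and the type B exchanger Slc4a9 are in the same one. Among the pump subunits, Atp6v1b1 had r = -0.06 with Atp6v1g3 and -0.27 with Atp6v0d2. These values became 0.51 and 0.23 without the 2 libraries most distant for Atp6v1b1. The sets were read from these same libraries and are a description of them.

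In the cyclosporine A table all 45 pairs were above 0 on rescaled FPKM, from 0.22 to 0.93 with a median of 0.72. Of these, 9 passed (permutation test over all 40320 pairings, adjusted p under 0.05), with the same limit on the p-values. By rho 7 of them passed as well and 2, Foxi1 with Slc4a9 and with Atp6v0d2, did not (adjusted p = 0.121 for both). The lowest r of the 9 was 0.867, which 10 of the 45 pairs and 1.17% of all pairs of tested genes reached, and 50% of all pairs were above 0. Genes outside the list were closer still to single members, as Tmod4 was to Atp6v1b1 (r = 0.99). Atp6v1b1 stood at 216 rescaled FPKM in cyclosporine A replicate 4, against 36.1 for the nearest animal of its group. The part of that library in this r was not tested. The closest members were Slc4a9 and Atp6v0d2, with r = 0.93 and rho = 0.95 over 8 libraries (permutation p = 0.000422, adjusted p = 0.0118), and Slc4a1 and Slc4a9, with r = 0.92 and rho = 0.90 (permutation p = 0.00451, adjusted p = 0.0337). Foxi1 had r = 0.91 with Atp6v1g3 and 0.88 with Atp6v0d2 here, where the tacrolimus table gave -0.32 and -0.38. Without the 2 libraries most distant for Foxi1, they were 0.74 and 0.79 here and 0.18 and 0.14 in the tacrolimus table. The difference between the tables was not tested. Points of a table share each library's scale, and the members also moved with the mitochondrial share, with r from 0.55 for Atp6v1b1 to 0.87 for Atp6v0d2. It was above 0 for all 10 members, of which Atp6v0d2 passed (permutation p = 0.00389, adjusted p = 0.0336). In the tacrolimus table r with the mitochondrial share ran from -0.17 for Slc4a1 to 0.57 for Slc26a4 (permutation p = 0.0553, adjusted p = 0.134), and none passed. The part of the mitochondrial share in the joint variation was not tested.

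**Figure D5:**
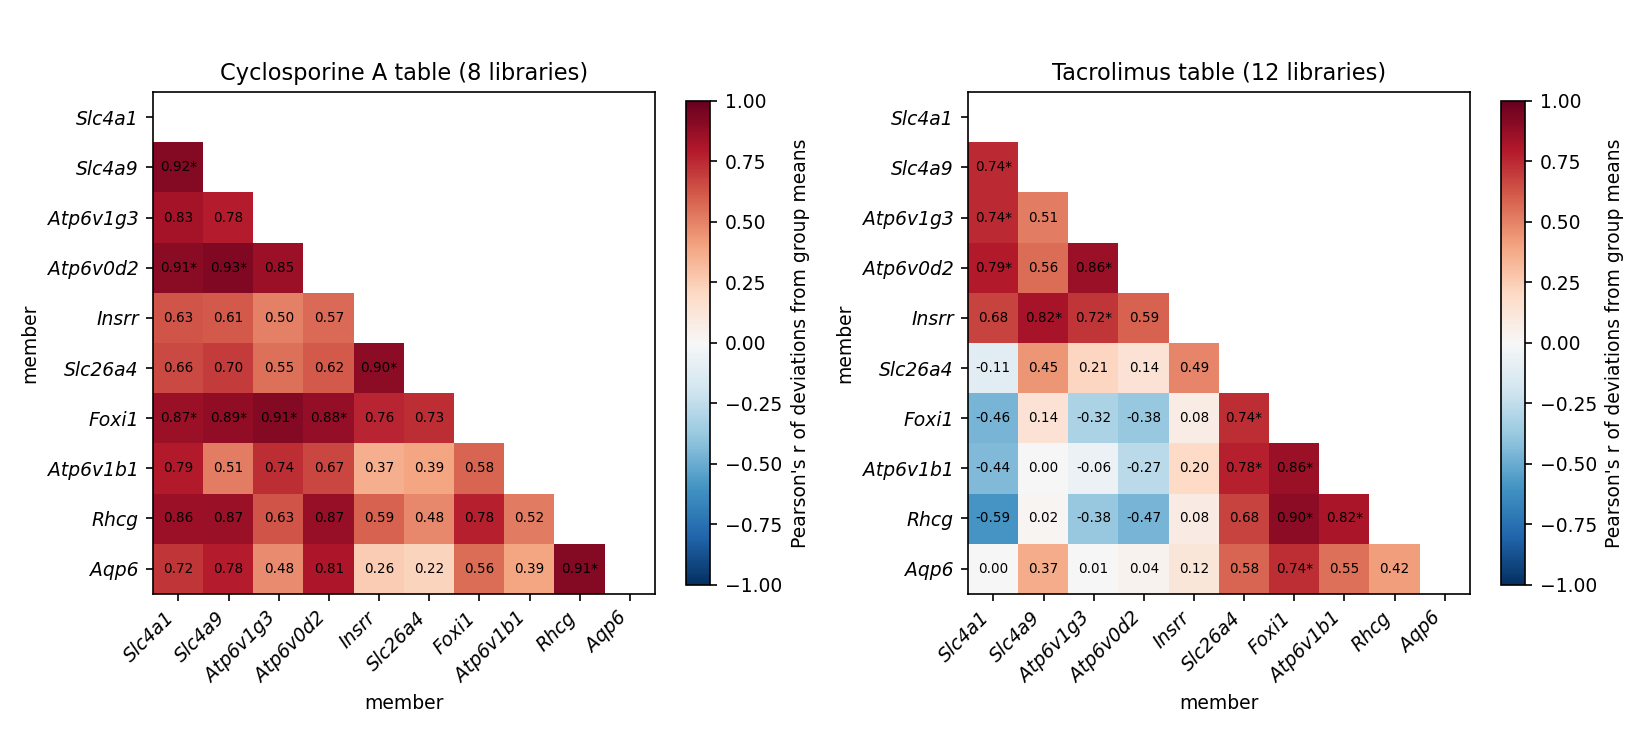
Pearson's r between members of deviations from their group means in log2(FPKM + 1), over 8 libraries of the cyclosporine A table (rescaled FPKM) and 12 of the tacrolimus table, with an asterisk where the adjusted permutation p is under 0.05. All cells of the first panel are above 0, and the second shows 2 blocks of 5 genes, with r from -0.59 to 0.49 between the blocks over all 12 libraries. Values between the blocks depended on single libraries: Atp6v1b1 with Atp6v1g3 went from -0.06 to 0.51 without the 2 libraries most distant for Atp6v1b1.

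By the likeness rule, the genes whose deviations were closest to those of an anchor over the 12 libraries of the tacrolimus table, among 15492 others, were Kat7 (r = 0.94), Oser1 (0.92) and Anxa4 (0.92) for Atp6v1b1. For Slc4a1 they were Tmem87a (r = 0.96), Kmt5c (0.95) and Apbb3 (0.95), and for Slc26a4 they were Hepacam2 (r = 0.93), Rpl9 (0.92) and Fitm1 (0.88). Hepacam2 is on the list of other intercalated cell genes. Over the 8 libraries of the cyclosporine A table, examined afterwards in the same way, they were Tmod4, Col6a3 and Col1a2 (r = 0.99 for each) for Atp6v1b1, Dmrt2 (0.99), also on that list, Ttc9c (0.97) and Ap3s1 (0.97) for Slc4a1, and Rcor3 (0.97), Gtdc1 (0.96) and Cep70 (0.94) for Slc26a4. No gene was named for the same anchor in both tables. For Atp6v1b1 in the cyclosporine A table, replicate 4 of the drug group stood far above the other animals (216 rescaled FPKM), and its part in these r values was not tested.

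The other genes of the pathway came from lists written with earlier results of these data known. Of 20 further subunits of the vacuolar proton pump, 19 were tested in each comparison and 0 were called with cyclosporine A on rescaled FPKM or with tacrolimus (limma, adjusted p under 0.05; unadjusted p under 0.05 for 4 and 0, beside 16.2% and 8.58% of all genes). With cyclosporine A the groups did not overlap for 3 of 19, beside 10.9% of all genes, all with the drug below: Atp6v0a2 (-0.52), Atp6v0d1 (-0.29) and Atp6v0e2 (-0.45), which are named here for that, after their values were seen. The median log2 fold changes of the 19 subunits were 0.0031 with cyclosporine A and -0.02 with tacrolimus. The largest rise and fall with cyclosporine A were Tcirg1, the a3 subunit (0.22, limma adjusted p = 0.593, and 0.08 without cyclosporine A replicate 4), and Atp6ap1, an accessory subunit (-0.60, adjusted p = 0.313). With tacrolimus they were Atp6v0a2 (0.10, adjusted p = 0.742) and Atp6v1g1 (-0.12, adjusted p = 0.853). These became 0.05 and -0.02 without tacrolimus replicate 6. On deposited FPKM 18 of 19 were called lower with cyclosporine A, beside 80.7% of all genes, led by p by Atp6ap1 (-1.87), Atp6v0e2 (-1.73), Atp6v0a2 (-1.35), Atp6v0d1 (-1.60) and Atp6v1a (-1.40), and the smallest fitted change was that of Atp6v1g2 (-0.31, adjusted p = 0.0811).

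For the cyclosporine A change minus the tacrolimus change on rescaled FPKM, 1 of the 19 pump subunits was called, beside 1.61% of all genes: Atp6v0e2, an e subunit of the membrane ring part, at -0.53 (SE 0.13, limma adjusted p = 0.0477). That call was lost under 17 of 24 alternatives chosen after seeing the data, among them the replicate block (adjusted p = 0.0932) and leaving out any 1 library of the cyclosporine A table (up to 0.147, without saline replicate 1). Drug, vehicle and table cannot be told apart in it. The largest differences were those of Atp6v1d (0.22, adjusted p = 0.445) and Atp6ap1 (-0.63, adjusted p = 0.450). Of the lists that follow, 0 of 15 other intercalated cell genes were called, from Oxgr1 (-0.69, adjusted p = 0.246, and -0.45 without cyclosporine A replicate 1) to P2ry14 (0.45, adjusted p = 0.468, and 0.27 without cyclosporine A replicate 4). The acid-base genes of other segments gave 0 of 14, from Car15 (-0.93, adjusted p = 0.309, and -0.54 without tacrolimus replicate 4) to Slc4a4 (0.53, adjusted p = 0.295). In these lists 2 and 3 genes had a limma unadjusted p under 0.05, beside 16% of all genes.

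Of 18 other intercalated cell genes, 15 were tested with cyclosporine A and 17 with tacrolimus, and 0 were called in either (limma; unadjusted p under 0.05 for 1 and 6, beside 16.2% and 8.58% of all genes). With tacrolimus the groups did not overlap for 1 of 17, beside 0.975% of all genes: Slc26a7, a chloride-bicarbonate exchanger, with the drug below (-0.16, limma adjusted p = 0.399), named after its values were seen. The largest rise and fall with cyclosporine A were P2ry14, a receptor for UDP-glucose (0.44, limma adjusted p = 0.432, and 0.26 without cyclosporine A replicate 4), and Atp6v0a4, the a4 subunit of the pump (-0.30, adjusted p = 0.280). With tacrolimus they were Rhbg, the ammonia transporter of the blood side (0.44, limma unadjusted p = 0.0208, adjusted p = 0.445), and Tmem213 (-0.23, adjusted p = 0.645). Without tacrolimus replicate 2 the change of Rhbg was 0.26 and Oxgr1 had the largest rise. On deposited FPKM 14 of 15 were called lower with cyclosporine A, beside 80.7% of all genes, among them Atp6v0a4 (-1.60), Adgrf5 (-1.31), Slc26a7 (-1.15), Rhbg (-1.34) and Car2, carbonic anhydrase 2 (-1.41), while Slc4a8 (-0.23, adjusted p = 0.0664) was not.

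Acid-base genes of other nephron segments gave 14 tested rows for 13 names in each comparison, since Car15 has 2 identifiers, and 0 were called with cyclosporine A on rescaled FPKM or with tacrolimus (limma; unadjusted p under 0.05 for 1 in each, beside 16.2% and 8.58% of all genes). The largest rise and fall were Slc4a3 (0.47, limma unadjusted p = 0.0062, adjusted p = 0.138) and Slc9a3, the sodium-proton exchanger NHE3 (-0.24, adjusted p = 0.473), with cyclosporine A. The groups did not overlap there for 2 of 14, beside 10.9% of all genes: Slc4a3, with the drug above, and Slc4a2, with the drug below (-0.23, limma adjusted p = 0.383), named after its values were seen. With tacrolimus they were Car15 (0.81, adjusted p = 0.610, and 0.42 without tacrolimus replicate 4) and Slc4a5 (-0.28, adjusted p = 0.643). On deposited FPKM 10 of 14 were called lower with cyclosporine A, beside 80.7% of all genes, led by Slc4a2 (-1.31), Slc9a3 (-1.12), Car12 (-1.31), Car4 (-1.21) and Slc4a5 (-0.64), and the smallest change was that of Slc4a4 (-0.11, adjusted p = 0.528).

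The members' summed level gave a whole-kidney reading of the intercalated cell program beside those of its neighbours. It was 331 to 379 FPKM in DMSO/PEG rats and 331 to 405 with tacrolimus, with medians of 357 and 377, and 200 to 331 rescaled FPKM in saline rats and 232 to 581 with cyclosporine A, with medians of 304 and 302. Principal cell markers, 8 of 8 detected, summed to 409 to 557 FPKM and 421 to 512 in the tacrolimus table and in rescaled FPKM to 172 to 253 with saline and 179 to 326 with cyclosporine A. None was called, but their fitted changes with cyclosporine A were above 0 for 8 of 8 (median 0.29), beside 50% of all genes. Groups did not overlap there for 2 of 8, beside 10.9% of all genes. With tacrolimus 3 of 8 were above 0 (median -0.08). The distal convoluted tubule, the segment just upstream, was lower with tacrolimus: its markers, of which 5 of 6 were above 0 and Pvalb was at 0, summed to 291 to 366 FPKM in vehicle rats and 51.1 to 78.7 with tacrolimus. All 5 tested markers of that segment were called lower by limma, among them Calb1, calbindin-D28k (log2 fold change -3.81, adjusted p = 1.74e-11), and Slc12a3, the thiazide-sensitive cotransporter (-1.24, adjusted p = 1.59e-04), while none of the 10 members was called. The summed level of these distal convoluted tubule markers also lay lower with cyclosporine A on rescaled FPKM, at 54.2 to 79.3 with saline and 25.4 to 35.1 with the drug, where 1 of 5, Calb1, was called lower (-1.85, limma adjusted p = 0.0251) and Slc12a3 was not (0.27, limma adjusted p = 0.809). The summed thick ascending limb markers parted there too, at 299 to 556 and 132 to 232, and the summed urothelium markers lay above saline, at 1.64 to 4.20 and 7.29 to 17.8. In each of these lists 2 of 4 tested markers had groups that did not overlap, beside 10.9% of all genes. By limma 1 of 4 was called lower in the first and 1 of 4 higher in the second, beside 0.6% of all genes called. The part of these neighbouring cells in the members' values was not tested.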

How the data were processed

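The authors deposited FPKM values, fragments scaled by gene length and a factor of the library. Cyclosporine A with saline formed 1 table and tacrolimus with DMSO/PEG another, and the unit was judged from the values. As deposited, the median-of-ratios factor was 1 in every library of the tacrolimus table. In the cyclosporine A table it ran from 0.423 to 1.99, so the tables were scaled differently. The submitters' processing notes name HISAT2 and the build rn6 with no role; the counting program, strand setting and annotation release are not given in the sources used here. Total RNA of the entire kidney and an NEBNext kit were used, per the labels' protocols. Positions of the members are printed as deposited. Promoter windows are from RefSeq (GRCr8), another build, and were matched by symbol.

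Fragments recovered from FPKM and gene length were whole to within 0.01 for 100% of values in the tacrolimus table and 74.6% in the cyclosporine A table, where Slc4a1 was among the 4441 genes that did not come out whole with the listed length. Rescaled FPKM is FPKM divided by median-of-ratios size factors of geometric mean 1. Libraries of a group differed by more than sampling noise (chi-square per degree of freedom 24.5 to 210 and 17.6 to 106), so none was counted as a copy. Genes entered the test with the equivalent of 10 fragments (at the median depth) in a number of libraries equal to the smaller group, and 15 fragments over all libraries. limma 3.58.1 (R 4.3.3; lmFit, eBayes with a trend) was run on log2(FPKM + 1) with Benjamini-Hochberg adjustment over all genes tested, and a gene was called at an adjusted p under 0.05. The scale understates changes of low genes. The script was checked on simulated data. The difference of the drugs' changes used Satterthwaite degrees of freedom. Correlations used 100000 permutations in the tacrolimus table and all pairings in the other. Deviations from group means were permuted across both groups of a table, so the p-values of the correlations are approximate and may be too small.

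The members and lists were chosen with earlier results of these data known. The named genes are the 10 members and, from each wider list and comparison, up to 5 called genes by smallest p and the largest rise and fall; likeness names the 3 genes with the highest r to Atp6v1b1, Slc4a1 and Slc26a4. Alternatives tried were other scalings, a pseudocount of 0.1, other filters, no trend, voomWithQualityWeights, a block on replicate number and leaving out each library.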

Additional observations from a re-analysis of the deposited data

Results flagged for a closer look

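In 40 groups of member values (each member in each group), 3 held an animal that stood apart from the rest of its group by Dixon's criterion, and chance alone flags about 1 group in 20. Atp6v1b1 was 216.3 rescaled FPKM in cyclosporine A replicate 4, where the nearest animal of the group had 36.1 and the lowest 24.0. Slc4a9 was 15.23 FPKM in tacrolimus replicate 3, below the nearest value of 19.7. Foxi1 was 24.04 FPKM in tacrolimus replicate 6, above the nearest value of 17.8.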

How the results depend on the processing

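Of the 10 members, 0 were called with tacrolimus or with cyclosporine A on rescaled FPKM under each alternative other than deposited values, leave-one-out fits included. On deposited FPKM 8 were called with cyclosporine A (7 to 9 with a library left out, an alternative chosen after seeing the data) and 9 for the difference between the drugs, on a scale where 10911 genes were called with cyclosporine A (9873 to 11171 with a library left out) and 10062 for the difference. The signs of 8 members then turned for cyclosporine A: Slc4a1 to -1.07, Slc26a4 to -0.90, Slc4a9 to -0.81, Atp6v1b1 to -0.83, Atp6v1g3 to -0.96, Atp6v0d2 to -1.18, Insrr to -0.54 and Rhcg to -1.11. For the difference between the drugs they became -1.15, -1.11, -0.97, -0.91, -0.69, -1.22, -0.65 and -1.20, in the same order.

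With a library left out, Slc4a1 ran from -0.0013 to 0.38, Atp6v1b1 from -0.25 to 0.79 and Atp6v0d2 from -0.050 to 0.25 with cyclosporine A, and Atp6v0d2 from -0.024 to 0.090 with tacrolimus. For the difference, Slc4a1 ran from -0.079 to 0.30, Slc26a4 from -0.058 to 0.29, Atp6v1b1 from -0.32 to 0.72 and Atp6v0d2 from -0.091 to 0.21.

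The count over all genes was less stable. With cyclosporine A it was 81, and it became 1 with no filter, 136 with FPKM of at least 1, 269 with voomWithQualityWeights and 1 (without saline replicate 4) to 141 (without cyclosporine A replicate 4) with a library left out. With tacrolimus it was 47, became 121 with voomWithQualityWeights and ran from 37 to 50 with a library left out. For the difference it was 216 and ran from 27 (without saline replicate 4) to 268. The cause was not tested. With the replicate number as a block, 6, 44 and 180 genes were called with cyclosporine A, with tacrolimus and for the difference, and 0 members; same-numbered libraries did not vary together (r over 0.1 for 1 of 4 pairs and 2 of 6), so the numbers were not taken as pairs. Each member had at least 273 fragments per library; nuclear fragments were 2905422 to 6548795 per cyclosporine A library and 10282872 to 17255791 with saline, and the part of depth in these counts was not tested.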
